A study of Mus musculus with 15 samples.

Results

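The p53 network described here is a set of 10 genes taken by symbol from the deposited count table: the transcription factor gene Trp53, its inhibitors Mdm2 and Mdm4, and the target genes Trp53inp1, Zmat3, Cdkn1a, Ei24, Bax, Ccng1 and Phlda3. All 10 were present among the 55367 symbols of the table. The study, by its title, looks for superior and inferior neural progenitors. It sorted cells of the C57BL/6 mouse medial cortex at E11.5 (mid-gestation) with annexin V, which binds phosphatidylserine exposed on the cell surface, and PI (propidium iodide), a dye kept out by an intact membrane. Of the bulk libraries, 6 came from cells that were AnnexinV-positive and PI-negative (called AnnexinV-positive below) and 6 from cells negative for both stains (double-negative), and they are numbered 1 to 6 in each group. The labels give no genotype, transgene or treatment other than the sort, and do not say whether each library of a group had its own embryo, so a p-value here reflects only how far the sequenced libraries scatter, and some of that scatter may be technical.

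The protein p53, encoded by Trp53 in the mouse, is made continuously and destroyed quickly in unstressed cells, because the ubiquitin ligase MDM2 marks it for degradation and its relative MDM4 blocks its activity. DNA damage, ribosome faults and other stresses release p53, which then switches on genes that stop the cell cycle, repair DNA or start apoptosis. The activity of p53 is therefore set largely at the protein level, and RNA levels of its targets, Mdm2 among them, are commonly read as its output. In the mouse embryo p53 is also known as one of the factors by which less fit cells are removed in cell competition.

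The depth, as total counts, ran from 88193 to 329813 over the double-negative group and from 190694 to 444412 over the AnnexinV-positive group. Levels are given as CPM, the usual unit of counts relative to library size, here scaled with TMM factors. A single count was worth between 2.41 CPM in AnnexinV-positive library 5 and 15.4 CPM in double-negative library 3. Haemoglobin made up 30.8% of the counts of double-negative library 2 and 12.3% of those of library 3, with a like share in library 1, while the highest share among the 9 remaining libraries was 0.00964%. All 11 progenitor markers were detected in both groups, with 0 called in the fit of 6879 genes, 8 of 11 above 0 and a median log2 fold change of 0.72 against 0.11 over all genes. Genes detected numbered 6571 to 8887 in double-negative and 9145 to 10065 in AnnexinV-positive libraries, without overlap, and a ribosomal RNA gene took 22.3% to 43.6% and 21.5% to 41.3% of the counts. The summed level of 9 young neuron markers was 1810 to 4145 CPM in double-negative and 302 to 913 CPM in AnnexinV-positive libraries, without overlap. Of 5 endothelial markers, 5 had 0 counts in the double-negative libraries, against summed levels of 0 to 275 CPM in AnnexinV-positive libraries. Of 6 mesenchyme markers, 5 had 0 counts in the double-negative group, with summed levels of 0 to 38.1 CPM there and 0 to 800.2 CPM in AnnexinV-positive libraries. Macrophage markers summed to 0 to 12.5 CPM and 0 to 109 CPM. The part of these differences in cell make-up in any p53 network value was not tested. In bulk samples, fewer cells of a type and less RNA per cell cannot be told apart.

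None of the 10 genes differed between AnnexinV-positive and double-negative cells past an adjusted p of 0.05. Trp53 itself was at nearly the same mean level in both groups, and its regulators and targets went both ways, with Mdm2, Mdm4 and Phlda3 above 0 on the log2 scale and the other 6 below. The test was edgeR's quasi-likelihood test, two-sided, with Benjamini-Hochberg adjustment over all genes of the fit. Of the 10 genes, 6 passed the filter on low counts and were tested among 3800 genes, of which 1.87% were called (0.395% higher, 15 genes, and 1.47% lower, 56 genes). With upper-quartile scaling these were 42 and 55. Cdkn1a, Bax and Ccng1 passed only a lower filter, in a fit of 6879 genes with 1.48% called, and Phlda3 only a fit with no filter, of 17283 genes with 1.37% called. An unadjusted p under 0.05 was found for 1 of the 10 genes (Trp53inp1), and for 15.7% of the 3800 genes. In none of the 10 did the libraries of the groups separate without overlap, which 2.58% of the 3800 genes did. The number of the 10 genes called stayed at 0 in 27 alternative fits, among them DESeq2, limma-voom and fits without 1 library. Not all 10 had a value in each: Cdkn1a, Bax and Ccng1 had values in 25 and Phlda3 in 23. DESeq2 gave none for Bax, Ccng1 and Phlda3.

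**Figure D1:**
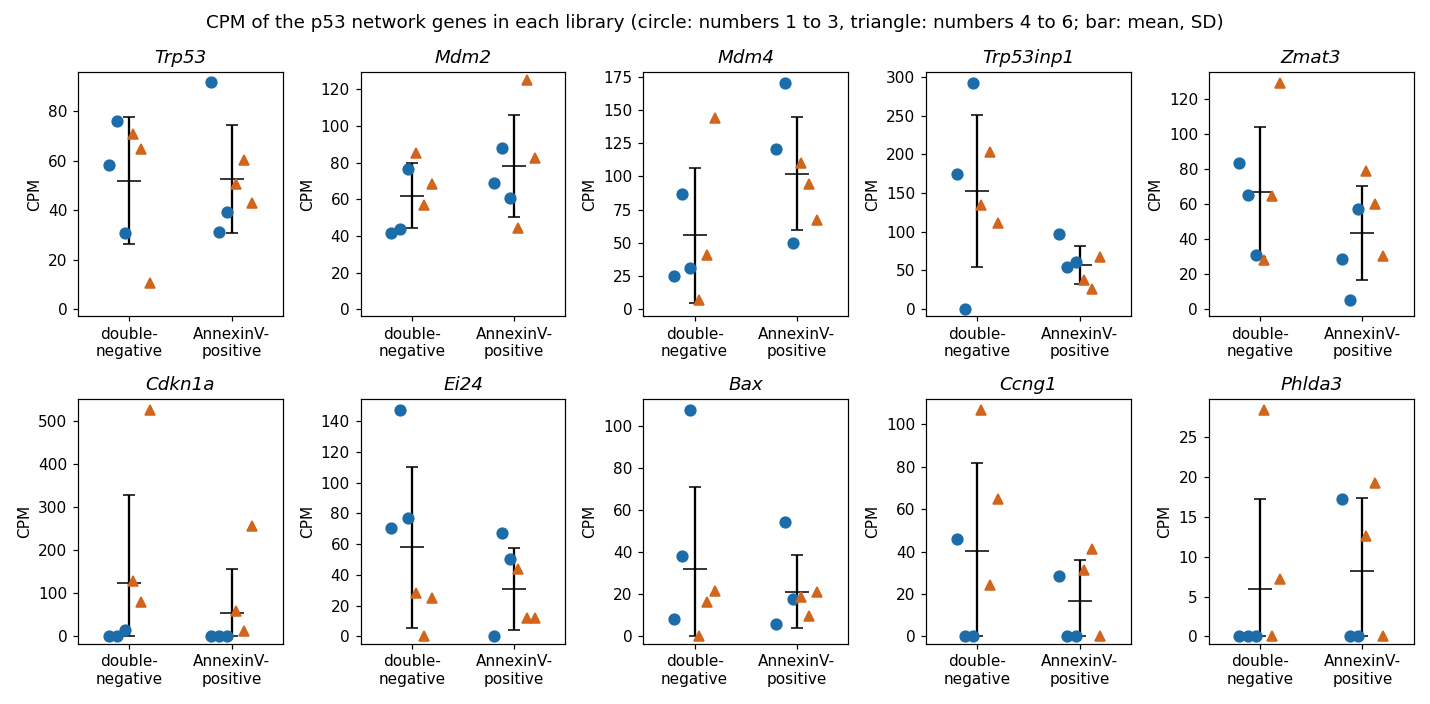
Level of each gene in CPM (vertical axis) in the 6 double-negative and 6 AnnexinV-positive libraries. Circles are libraries numbered 1 to 3 and triangles those numbered 4 to 6, and the horizontal mark and bar are the mean and SD over 6 libraries, with the bar stopped at 0. The groups overlap for all 10 genes, and Cdkn1a is near 0 in all libraries numbered 1 to 3.

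Trp53 had 14, 14, 2, 10, 8 and 3 counts in double-negative libraries 1 to 6, and those of the AnnexinV-positive group had 16, 12, 11, 16, 25 and 14. In CPM the lowest, median and highest were 10.8, 61.5 and 76.2 in double-negative and 31.0, 46.6 and 91.8 in AnnexinV-positive libraries. The lowest library was double-negative library 6 and the highest was AnnexinV-positive library 1, and the ranges lay over each other. The means were 52.0 ± 25.7 CPM (SD, n = 6) in double-negative and 52.6 ± 21.6 CPM (SD, n = 6) in AnnexinV-positive cells. The log2 fold change, AnnexinV-positive minus double-negative here and below, was 0.00 (SE 0.74, adjusted p = 0.999 in edgeR). Its 95% interval ran from −1.52 to 1.52, so changes of Trp53 mRNA within those bounds were not excluded by these libraries. An SE derived from so small a fold change is imprecise, and with RLE scaling it was 0.62. On GRCm38 the gene lies on chromosome 11 at 69580359 to 69591873, on the plus strand, and the annotation also holds a pseudogene copy, Trp53-ps, whose reads the authors' counting may or may not have kept apart.

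Mdm2, the ubiquitin ligase that degrades p53 and is itself a p53 target (chromosome 10 at 117688875 to 117710758), had 10, 8, 5, 12, 7 and 19 counts in double-negative libraries 1 to 6. In AnnexinV-positive libraries 1 to 6 it had 12, 34, 17, 14, 52 and 27 counts. Its level was 62.0 ± 17.8 CPM in double-negative and 78.3 ± 27.9 CPM in AnnexinV-positive cells (SD, n = 6 each), with 4 of 6 AnnexinV-positive libraries above the double-negative median. Mdm2 had the smallest relative spread of the 10 genes, and its difference of 0.36 (SE 0.52, interval −0.71 to 1.43, adjusted p = 0.781 in edgeR) lay within the spread between libraries.

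Mdm4, which binds p53 and blocks its activity (chromosome 1 at 132959484 to 133030561), had 6, 16, 2, 1, 5 and 40 counts across the double-negative libraries, by number. Across the AnnexinV-positive libraries it had 21, 66, 14, 35, 39 and 22. The lowest, median and highest levels were 7.10, 35.6 and 144 CPM in double-negative and 50.1, 102 and 171 CPM in AnnexinV-positive libraries. All 6 AnnexinV-positive libraries stood above the double-negative median, while double-negative library 6, at 144 CPM, stood above all AnnexinV-positive libraries but 1 (library 2). The difference of 0.81 (SE 0.59, interval −0.40 to 2.01) did not pass (adjusted p = 0.551 in edgeR). The processed pseudogene Gm29257 overlaps Mdm4 on the other strand, so its reads cannot be told apart from those of Mdm4 without a stated strand setting. A copy named Mdm4-ps is also annotated, whose reads the authors' counting may or may not have kept apart.

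Of the target genes, Trp53inp1 had the smallest unadjusted p between the sort groups. It encodes a nuclear protein that p53 induces and that acts with p53 in cell cycle arrest and cell death (chromosome 4 at 11156431 to 11174379). Its counts were 42, 0, 19, 19, 25 and 31 in double-negative and 17, 21, 17, 12, 11 and 22 in AnnexinV-positive libraries 1 to 6. In CPM, the AnnexinV-positive libraries lay between 26.5 and 97.6 with a median of 57.6, and 5 of the double-negative libraries lay between 111 and 292, above all of them. Double-negative library 2 had 0 counts in 321494, where 3 counts would have been 16.3 CPM. This library also had the highest haemoglobin share. The log2 fold change was −1.39 (SE 0.62, interval −2.65 to −0.12), with an unadjusted p of 0.0331 and an adjusted p of 0.265 in edgeR. Without double-negative library 2 it was −1.67 (adjusted p = 0.0645). Leaving out the 3 libraries with a high haemoglobin share gave −1.41 (adjusted p = 0.273). The value kept a negative sign in 27 of 27 alternatives, with adjusted p from 0.0645 to 0.7201. In limma-voom it was −0.60 (SE 0.77).

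Zmat3, which encodes an RNA-binding zinc finger protein induced by p53 (chromosome 3 at 32334792 to 32366014), had 20, 12, 2, 4, 8 and 36 counts across the double-negative libraries, by number, and 5, 2, 16, 25, 25 and 10 across the AnnexinV-positive ones. Levels were 67.0 ± 37.4 CPM and 43.5 ± 26.7 CPM (SD, n = 6 each), and 5 of 6 AnnexinV-positive libraries were below the double-negative median. The log2 fold change of −0.66 (SE 0.65, interval −1.98 to 0.67) did not pass (adjusted p = 0.679 in edgeR).

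Ei24 encodes a membrane protein of the endoplasmic reticulum that was found as a gene induced by etoposide through p53 (chromosome 9 at 36779159 to 36797393). By number, the double-negative libraries had 17, 27, 5, 4, 0 and 7 counts and the AnnexinV-positive ones 0, 26, 14, 14, 5 and 4. The highest levels, 70.8, 147 and 76.8 CPM, were those of double-negative libraries 1 to 3, the libraries with a high haemoglobin share, while double-negative libraries 4 to 6 were at 28.4, 0 and 25.2 CPM. The log2 fold change was −0.87 (SE 0.83, adjusted p = 0.669 in edgeR), and it turned to 0.71 (SE 1.19, adjusted p = 0.852) without double-negative libraries 1 to 3. The antisense gene Gm26787 overlaps Ei24, and without a stated strand setting their reads cannot be told apart.

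Bax, the pore-forming protein of the outer mitochondrial membrane that commits a cell to apoptosis (chromosome 7 at 45461697 to 45466898), had 0 to 21 counts per library. By number, its counts were 2, 7, 7, 0, 2 and 6 in the double-negative group and 1, 21, 5, 6, 4 and 7 in the AnnexinV-positive group. The median level was 18.9 CPM in double-negative and 18.4 CPM in AnnexinV-positive libraries, and 3 of 6 AnnexinV-positive libraries lay on each side of the double-negative median. A single library stood apart in each group, double-negative library 3 at 107 CPM from 7 counts and AnnexinV-positive library 2 at 54.3 CPM. The log2 fold change was −0.33 (SE 1.04, interval −2.43 to 1.76, adjusted p = 0.949 in edgeR) and 0.41 (SE 1.07, adjusted p = 0.953) without double-negative library 3, so these counts gave no direction for Bax. A second protein-coding model, Gm45808, overlaps Bax on the same strand.

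Ccng1, which encodes cyclin G1, an atypical cyclin that recruits a phosphatase to MDM2 (chromosome 11 at 40748552 to 40755311), was not detected in 5 of the 12 libraries. Counts by number were 11, 0, 0, 15, 3 and 18 among double-negative and 5, 0, 0, 10, 17 and 0 among AnnexinV-positive libraries. The median was 35.1 CPM in double-negative and 14.4 CPM in AnnexinV-positive libraries, with a log2 fold change of −1.20 (SE 1.09, adjusted p = 0.766 in edgeR). Phlda3, which encodes a small p53-induced protein that restrains AKT signalling at the membrane (chromosome 1 at 135766119 to 135769136), had 6 counts in double-negative libraries, in numbers 4 and 6. It had 15 counts in AnnexinV-positive libraries, in numbers 1, 4 and 5. Its fitted value of 0.53 (SE 1.61, interval −2.63 to 3.68, adjusted p = 0.897 in edgeR) rests on these 21 counts.

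**Figure D2:**
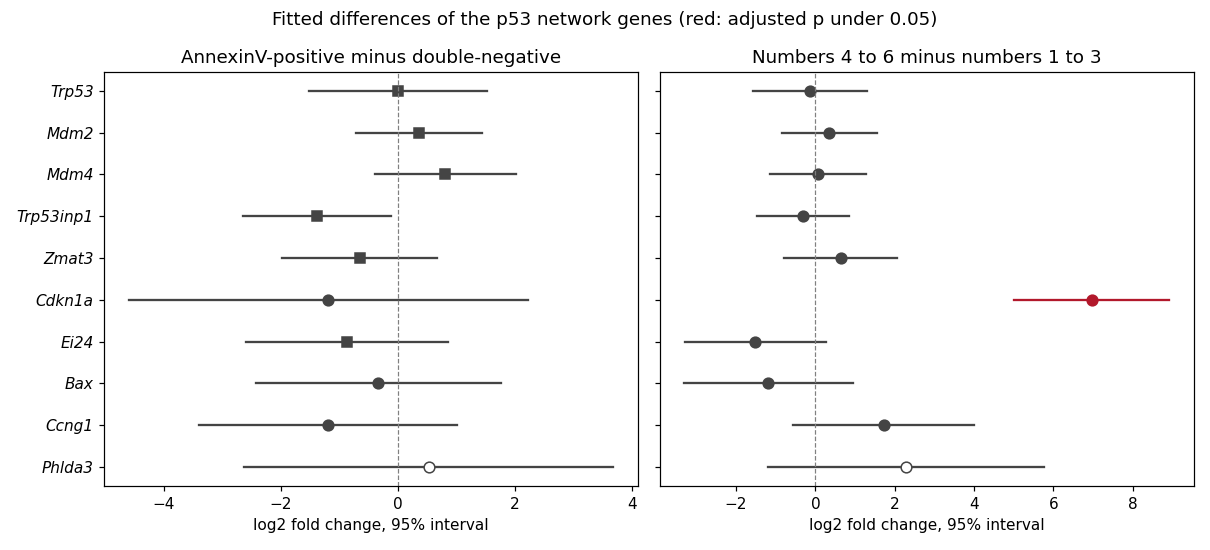
Log2 fold change (horizontal axis) with its 95% interval for each gene, for the sort groups on the left and for the library numbers on the right. Squares come from the fit of 3800 genes, filled circles from that of 6879 genes and open circles from that of 17283 genes, and red marks an adjusted p under 0.05. On the left the interval of Trp53inp1 alone leaves out 0, before adjustment, and on the right Cdkn1a, at 6.96, is the value that passed.

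Cdkn1a encodes p21, the inhibitor of cyclin-dependent kinases through which p53 stops the cell cycle, and its counts lay almost wholly in libraries numbered 4 to 6 of both sort groups. It lies on chromosome 17 at 29090976 to 29100727. A further gene model, AC167363.2, overlaps it on the other strand, and without a stated strand setting their reads cannot be told apart. Double-negative libraries 1 to 6 had 0, 0, 1, 18, 10 and 146 counts, and the AnnexinV-positive ones had 0, 0, 0, 19, 5 and 84. Libraries numbered 1 to 3 thus held 1 count together and those numbered 4 to 6 held 282, in both sort groups. In double-negative libraries 4 to 6 the levels were 128, 80.9 and 525 CPM, and in AnnexinV-positive libraries 4 to 6 they were 59.9, 12.1 and 257 CPM. Library 6 was the highest in each group, with 83.4% of the double-negative and 77.8% of the AnnexinV-positive counts.

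**Figure D3:**
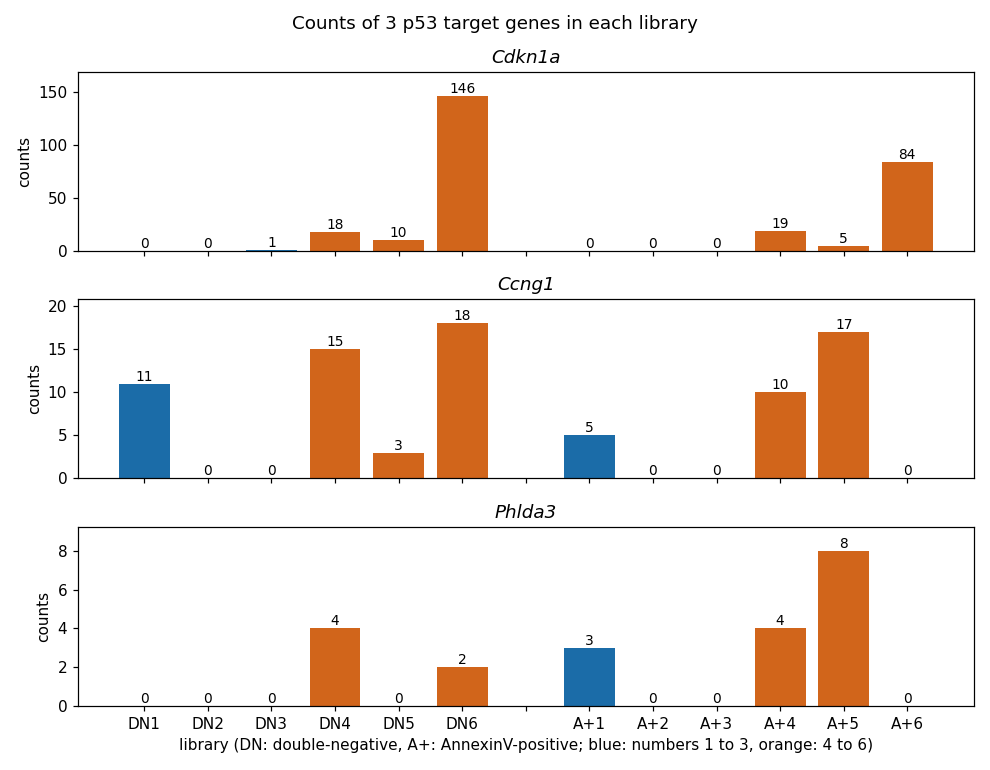
Counts (vertical axis, not scaled for depth) of Cdkn1a, Ccng1 and Phlda3 in each library, with the count printed above each bar. Blue bars are libraries numbered 1 to 3 and orange bars those numbered 4 to 6. The Cdkn1a bars of numbers 1 to 3 are at 0 or 1, and the highest are library 6 of each group, at 146 and 84.

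Between the sort groups Cdkn1a had a log2 fold change of −1.19 (SE 1.54, interval −4.60 to 2.21, adjusted p = 0.852 in edgeR). At each of the numbers 4, 5 and 6 the AnnexinV-positive library was below the double-negative one. Within numbers 4 to 6 the value was −1.16 (SE 0.77, adjusted p = 0.716), with the set of numbers as a term −1.27 (SE 0.78, adjusted p = 0.541) and with the replicate number as a block −1.59 (SE 0.82, adjusted p = 0.392). The sign turned in 1 of 25 alternatives, with 0.40 (adjusted p = 0.953) without double-negative library 6 and −2.96 (SE 1.61, adjusted p = 0.593) without AnnexinV-positive library 6. Without double-negative libraries 1 to 3 it was −2.13 (SE 1.37, adjusted p = 0.666). Within numbers 1 to 3 no value can be given, with 1 count in all.

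The labels name no batch, and the division of the numbers into 1 to 3 and 4 to 6 was made with the Cdkn1a counts already known, so the following test describes where counts lie and is not independent evidence. With the sort group as a term, Cdkn1a had a log2 fold change of 6.96 (SE 0.97, adjusted p = 1.94e-05 in edgeR), higher in numbers 4 to 6. It was 1 of 13 genes called among 6879, which is 0.189% (0.0872% higher), and had an unadjusted p under 0.05 as did 5.84% of them, while 0 of the other 9 genes of the network were called. Since that fitted value rests on 1 count in numbers 1 to 3, it depends on the prior count. In double-negative libraries the ratio of scaled counts was 157 (95% exact interval 27.8 to 6228, counting error only). In AnnexinV-positive libraries, where numbers 1 to 3 had 0 counts, Cdkn1a was at least 28.6-fold higher in numbers 4 to 6, taking 3 counts over the lower group as the floor. Without library 6, a check added after the data were seen, the bound was 9.19-fold and the double-negative ratio was 51.8 (8.56 to 2117). Even so, the sets were not fully apart in CPM, because the single count of the shallow double-negative library 3 was worth 15.4 CPM, above the 12.1 CPM of AnnexinV-positive library 5. Fitted within AnnexinV-positive libraries alone, Cdkn1a had 8.10 (SE 1.65) and missed the threshold (adjusted p = 0.0579).

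Other measures differed between the library numbers, some of them in the double-negative group only. The ribosomal RNA share was 22.3% to 28.4% in double-negative libraries 1 to 3 and 37.7% to 43.6% in 4 to 6. In AnnexinV-positive libraries the sets overlapped, with 30.1%, 22.1% and 21.5% in 1 to 3 and 23.1%, 30.5% and 41.3% in 4 to 6. The 21 modifying enzymes and cofactors of p53 summed to 3073 to 3891 CPM in numbers 1 to 3 and 2196 to 2903 CPM in 4 to 6, without overlap. Taken singly, 0.392% of 6879 genes had no overlap between these sets, a share of genes and not of sums over a list. Sums of most other lists overlapped between the sets. Of the 21, 16 were tested by number and 0 passed in either direction. Ddx5 alone held 2227 of the 4406 counts in numbers 1 to 3 and 1741 of the 3874 in 4 to 6. Haemoglobin was high in double-negative libraries 1 to 3, while AnnexinV-positive libraries 1 to 3, also without Cdkn1a, had at most 0.00964%. Of the 12 immediate early and dissociation genes, the summed level was 292 to 1137 CPM in numbers 1 to 3 and 133 to 291 CPM in numbers 4 to 6. Fos, an immediate early transcription factor, had 96 counts in numbers 1 to 3, of which AnnexinV-positive library 1 held 66, and 4 in numbers 4 to 6. In AnnexinV-positive library 6, with the highest Cdkn1a level of its group, mesenchyme markers summed to 800.2 CPM and endothelial markers to 275 CPM, the highest of the 12 libraries. In double-negative library 6, with the highest Cdkn1a level of all, both sums were 0. The part of these measures in the Cdkn1a values was not tested.

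Ccng1 and Phlda3 also had most of their counts in numbers 4 to 6, 63 against 16 and 18 against 3, and Ei24 and Bax had most of theirs in numbers 1 to 3, 89 against 34 and 43 against 25. None of these passed. In the fit with no filter, used for Phlda3, 0.318% of genes were called. The log2 fold changes, numbers 4 to 6 minus 1 to 3, were 1.73 (SE 1.13) for Ccng1, 2.28 (SE 1.78) for Phlda3, −1.51 (SE 0.88) for Ei24 and −1.18 (SE 1.05) for Bax, with adjusted p from 0.675 to 0.980 in edgeR. Trp53 (−0.13, SE 0.71), Mdm2 (0.35, SE 0.59), Mdm4 (0.07, SE 0.60), Trp53inp1 (−0.31, SE 0.58) and Zmat3 (0.64, SE 0.71) were closer to 0. The sort difference itself was not shown to change with the library numbers: the interaction passed for 0 of the 10 genes, against 0.0436% of 6879 genes (3), and had an unadjusted p under 0.05 for 0 of the 10 in edgeR. Its intervals were wide, from −1.54 to 4.01 for Cdkn1a.

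An annotated start of Cdkn1a is shown because Cdkn1a was the gene called by library number and is a textbook p53 target. RefSeq sequences on GRCm38.p6, from 250 bases before to 50 after a gene start, were found for 8 of the 10 genes in 10 windows. Each was searched on both strands for the consensus decamer of the p53 response element, and for a pair of decamers with 0 to 13 bases between them, up to 3 mismatches and both core tetramers kept. Of the Cdkn1a windows, that on chr17:29093519-29093818, plus strand, held no pair and 0 exact decamers. The one on chr17:29090729-29091028, plus strand, held a pair with 0 mismatches and a spacer of 12 bases. Where several pairs matched, the one with the fewest mismatches was marked. The 10 bases directly after its second decamer, in lower case, differ from the consensus only at their first base. With that decamer they form a pair without a spacer, which was not marked. Capitals mark the decamers of the kept pair, which begin 73 bases before the gene start that this window covers:
Cdkn1a promoter: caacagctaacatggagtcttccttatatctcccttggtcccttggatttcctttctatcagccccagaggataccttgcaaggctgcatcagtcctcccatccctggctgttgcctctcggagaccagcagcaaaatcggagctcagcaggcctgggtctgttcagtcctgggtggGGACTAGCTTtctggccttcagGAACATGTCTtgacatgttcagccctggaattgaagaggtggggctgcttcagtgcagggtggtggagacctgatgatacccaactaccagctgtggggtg

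Pairs with 2 or 3 mismatches were found for 3 other genes, in the windows of Bax (2 mismatches, chr7:45467079-45467099, minus strand), Trp53 (3 mismatches, chr11:69580284-69580303, plus strand) and Mdm4 (3 mismatches, chr1:133025626-133025650, minus strand). They are printed with the decamers in capitals:
Bax site: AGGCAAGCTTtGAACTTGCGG
Trp53 site: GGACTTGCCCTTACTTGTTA
Mdm4 site: AAGCAAGGTAtgctgTGGCAAGCCT

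Of all 32851 promoter windows in the table, 6.72% held such a pair with up to 3 mismatches and 0.0731% a pair with 0 mismatches. Of the 10 windows of the network genes, 4 held a pair, and 6 held at least 1 exact decamer, which 8.36% of all windows did. These genes are in the set because they belong to the p53 pathway, so a higher share among them is no result of these data. A match describes letters and not binding, and windows without a pair say nothing of sites elsewhere in a gene. These were the windows of Mdm2, Ccng1, Ei24 and Phlda3 and a further window each of Cdkn1a and Mdm4.

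Per kilobase of annotated exon, and with medians over the 12 libraries, Mdm2 (13.5 CPM per kilobase) and Trp53 (13.45) were the highest, followed by Trp53inp1 (12.7) and Bax (11.7). Ccng1 (7.54), Ei24 (7.45), Mdm4 (5.21) and Zmat3 (5.14) came next, Cdkn1a (3.86) after them, and Phlda3, listed at 0 in 7 of 12 libraries, last with a median of 0. By the median of each group the order differed: Trp53inp1 (23.9), Trp53 (15.2), Cdkn1a (13.55) and Mdm2 (12.3) led in double-negative libraries, and Mdm2 (14.9) led in AnnexinV-positive libraries, where Trp53inp1 was at 8.89. Neighbours in the order over 12 libraries did not differ beyond their spread. The SD over 12 libraries was 4.69 CPM per kilobase for Mdm2, 5.60 for Trp53 and 18.7 for Bax. Cdkn1a had the widest range, from 0 to 148 CPM per kilobase, and would lead by its mean of 25.3.

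The wider list of p53 target genes, 40 beside the 10, was mostly under the filter on low counts. Of them 7 had 0 counts in the 12 libraries, among them the apoptosis genes Bbc3, Pmaip1 and Fas, so that 3 counts, a share of 0.000675% in the deepest library and 0.0034% in the shallowest, could have been missed. At the filter of the fit of 3800 genes 6 were tested and 0 passed in either direction, with a median log2 fold change of −0.47 against 0.06 over all genes tested. At the lower filter 15 were tested, 0 of them passing, with 11 of 15 below 0 and a median of −0.46 against 0.11. Summed over the 40 genes, levels were 799 to 1228 CPM in double-negative and 684 to 960 CPM in AnnexinV-positive libraries, with overlap. Btg1, an antiproliferative gene, had −1.02 (SE 0.39, adjusted p = 0.185 in edgeR). Fbxw7, a substrate receptor of a ubiquitin ligase, had −1.33 (SE 0.62, adjusted p = 0.294 in edgeR). Rps27l and Ckap2 had 0.73 (SE 0.40) and 0.69 (SE 0.74).

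Among the targets under that filter, Plk2 and Sesn1, named after their values were seen, had the smallest p in the fit of 6879 genes. Plk2, a polo-like kinase also induced by neuronal activity, was at 20.8 to 291 CPM in double-negative and 0 to 39.4 CPM in AnnexinV-positive libraries. It had −3.05 (SE 0.88) and narrowly missed the threshold (adjusted p = 0.0614 in edgeR). Sesn1, a stress-induced inhibitor of mTORC1 signalling, was at 80.5 ± 52.0 CPM in double-negative and 18.7 ± 20.4 CPM in AnnexinV-positive libraries (SD, n = 6 each), with −1.97 (SE 0.82, adjusted p = 0.271 in edgeR). Young neuron markers were lower in the same direction, 6 of 9 past the threshold with a median of −2.17. Over all 3800 genes of that fit 1.47% were called lower and the median was 0.06. The part of neuron content in these target genes was not tested.

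Of the p53 family, Trp63 had 0 counts in the 12 libraries. Trp73, the relative that marks Cajal-Retzius neurons in the developing cortex and is itself a p53 target, had 3, 14 and 14 counts in double-negative libraries 2, 4 and 6 and 0 in the other double-negative libraries. AnnexinV-positive libraries had 0 counts, so Trp73 was at least 19.0-fold lower there against a floor of 3 counts over the group, and at least 12.1-fold without double-negative library 4. It was called in the fit with no filter (adjusted p = 0.0416 in edgeR, 1.37% of 17283 genes called) and stood under both filters.

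Regulators of p53 showed no called gene. Of 14 ubiquitin ligases and deubiquitinases 11 were tested, 0 of them passing (median −0.26). Usp7, the deubiquitinase that stabilises MDM2 and p53, had 0.92 (SE 0.56, adjusted p = 0.452 in edgeR). Of 15 genes of the damage kinases and their partners 7 were tested, 0 of them passing (median −0.12). Trp53bp1, a p53-binding protein of double-strand break repair, came nearest with −1.18 (SE 0.33, adjusted p = 0.0648 in edgeR). Usp28, also in the ligase list, had 0.995 (SE 0.78), Atr had −0.61 (SE 0.75) and Csnk1a1 had −0.17 (SE 0.29). Of 21 modifying enzymes and cofactors 12 were tested, 0 of them passing (median 0.01), and the RNA helicase gene Ddx5, a p53 coactivator, had −0.46 (SE 0.25, adjusted p = 0.374 in edgeR).

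Genes of ribosomal and nucleolar stress, whose proteins can bind MDM2 and free p53, were 11 tested of 12 with 0 called, 9 above 0 and a median of 0.69 against 0.06 over all genes. Npm1, a nucleolar chaperone, had 0.84 (SE 0.26, adjusted p = 0.0898 in edgeR), while ribosomal protein genes Rpl5, Rps27a and Rpl26 had 0.69 (SE 0.23), 0.78 (SE 0.28) and 0.81 (SE 0.30). Cdkn2a, the gene of the MDM2 inhibitor ARF, had 0 counts in the 12 libraries. Of the 18 mitochondrial apoptosis genes beside Bax 6 were tested and 0 passed (median −0.20). The channel gene Vdac2 had 1.41 (SE 0.46, adjusted p = 0.115 in edgeR), whereas Bcl2l1, the gene of the survival protein BCL-XL, had −1.57 (SE 0.55, adjusted p = 0.142 in edgeR). Cycs and Mcl1 had 0.51 (SE 0.30) and −0.67 (SE 0.57).

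With a filter on low counts, genes of the p53 pathway lists passed among the relatives of Cdkn1a. Genes also passed among the cell cycle genes repressed through p21 and the DREAM complex, a repressor assembled when p21 blocks cyclin-dependent kinases. Of 20 genes 10 were tested, 2 rose in AnnexinV-positive cells and 0 fell, and 9 of 10 values were above 0 with a median of 1.17, where 0.395% of all genes tested were called higher and their median was 0.06. Young neuron marker sums were lower in AnnexinV-positive libraries without overlap, and progenitor marker sums were 1655 to 2543 CPM there against 983 to 2175 CPM. The part of this cell make-up in the cell cycle values was not tested. Those that rose were Mki67 (1.51, SE 0.33, adjusted p = 0.0121 in edgeR), the gene of the proliferation marker Ki-67, and Cenpf (2.01, SE 0.46, adjusted p = 0.0176 in edgeR), of the kinetochore. Birc5 and Ccnb2 had 1.37 (SE 0.51) and 1.06 (SE 0.52). The summed level was 2081 to 3634 CPM over the AnnexinV-positive group and 227 to 2373 CPM over the other, with only double-negative library 2 inside the AnnexinV-positive range. Of the 17 relatives and partners of Cdkn1a 10 were tested, and Ccnd2, the gene of cyclin D2, rose (1.70, SE 0.30, adjusted p = 0.00214 in edgeR) while 0 fell. Ccnd1 had 2.06 (SE 0.58, adjusted p = 0.0648 in edgeR), Cdk2 had 1.79 (SE 0.82) and Cdk6 had 1.27 (SE 0.60). Of the immediate early list 2 genes were tested and 0 passed, Ier2 with 0.49 (SE 0.37) and Egr1 with −0.58 (SE 0.89).

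Among the other 3799 genes of the main fit, the levels of Tmem184c, Bsg, Ndufs5, Vps35 and Amotl1 followed that of Trp53 most closely over the 12 libraries, with Pearson r of log2 CPM from 0.819 to 0.852. With 2 to 25 counts of Trp53 per library, and as the highest of 3799 values, these correlations are a description only.

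**Figure D4:**
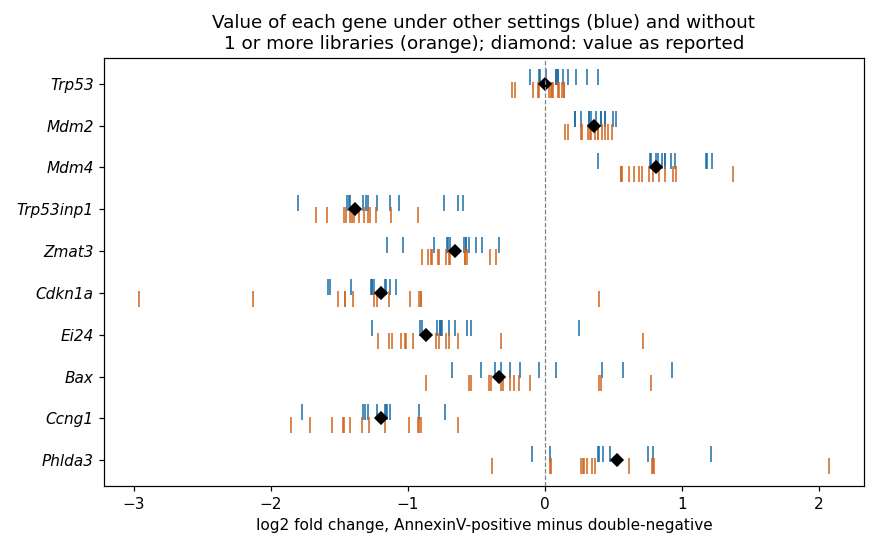
Log2 fold change of each gene between the sort groups (horizontal axis) as reported (diamond), under other scalings, filters, tests, tables and covariates or within a set of library numbers (blue), and with 1 or more libraries left out (orange). Trp53inp1, Zmat3 and Ccng1 stay below 0 and Mdm2 and Mdm4 above 0 in every alternative drawn, while Trp53, Cdkn1a, Ei24, Bax and Phlda3 cross 0.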

How the data were processed

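The authors deposited a table of estimated counts per gene symbol, named raw counts, in which 8.84% of nonzero values were not whole. Count tests used these values rounded to whole numbers. The other deposited table carries the name TPM, yet columns total between 764764 and 1835680. How the authors scaled it is not given in the sources, so the deposited values were handled as a score, in alternatives only. The tools listed in the submitters' processing notes are STAR, featureCounts, Trimmomatic and Seurat 4, and the builds are mm10 and GRCm38, without roles. The sources used here do not give the annotation or strand setting. The 3 samples without a sort label were not used here.

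Counts were tested with edgeR 4.0.16 (R 4.3.3, limma 3.58.1, DESeq2 1.42.0) after filterByExpr (minimum count 10, total 15; lower filter 3 and 10) and TMM scaling, robust quasi-likelihood, with the sort group as the term. An SE is the log2 fold change over the root of the F statistic, and 95% intervals use the moderated degrees of freedom. CPM values divide counts by the TMM-scaled size of the 3800 filtered genes, and log2 CPM adds a prior count of 2. The fits were tested on simulated data. Intervals of count ratios and 3-count floors cover counting error only. Chi-square per degree of freedom between libraries of a group was 4.44 to 30.1, so none was the same library sequenced again. This cannot tell whether libraries of a group shared an embryo or a pool of cells. Gene positions are GENCODE M21. The text names all 10 genes, for each list up to 4 tested genes of lowest p, and the 5 genes most like Trp53. The members, the lists and the division by library number were chosen with earlier results of these data known.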

Additional observations from a re-analysis of the deposited data

Results flagged for a closer look

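In 5 of 20 gene and group combinations of the network a single library lay far from the other 5 in CPM, by a gap past the critical value of Dixon's test. The chance rate of about 1 in 20 groups holds for normally distributed values. CPM from few counts, with zeros and unequal depth, are not such values, so 5 of 20 cannot be set against that rate. Cdkn1a stood at 525 CPM in double-negative library 6, with the next library at 128 CPM, and at 257 CPM in AnnexinV-positive library 6, with the next at 59.9 CPM. Bax stood at 107 CPM in double-negative library 3, the shallowest, with the next at 38.1 CPM, and at 54.3 CPM in AnnexinV-positive library 2, with the next at 21.4 CPM. Phlda3 stood at 28.4 CPM in double-negative library 4, from 4 counts, with the next at 7.19 CPM.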

How the results depend on the processing

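The number of network genes called between the sort groups was 0 in all 27 alternatives, among the genes that had a value in each. The number of all genes called, 71, was 237 with no filter, 185 in DESeq2, 15 and 39 for the table named TPM with 1 and 5 added, 21 within numbers 4 to 6, 42 with double-negative libraries 1 to 3 left out, 13 with 3 and 5 of that group left out, and 46 to 117 with 1 library left out, lowest without double-negative library 3 and highest without double-negative library 4. With the replicate number as a block 71 genes and 0 network genes were called. Deviations of same-numbered libraries correlated weakly (r from −0.01 to 0.08, 1 of 6 best matched to its own number). With counts this low, a weak correlation cannot decide whether the numbers pair the samples.

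No network gene was called between the sort groups in any fit, so the sign changes below are all of uncalled values. Trp53 (0.00) was −0.036 with RLE scaling, −0.041 in DESeq2, −0.11 within numbers 1 to 3, −0.054 without double-negative libraries 3 and 5, and −0.24 to 0.14 with 1 library left out. Bax (−0.33) was 0.077 in limma-voom, 0.93 and 0.57 for the table named TPM, 0.42 within numbers 4 to 6, 0.77 without double-negative libraries 1 to 3, 0.40 without 3 and 5, and −0.87 to 0.41 with 1 left out. Ei24 was 0.25 within numbers 4 to 6 and 0.71 without double-negative libraries 1 to 3. Phlda3 was −0.092 in limma-voom and −0.39 without those 3. Cdkn1a was −2.96 to 0.40 with 1 left out. The cause was not tested.

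For numbers 4 to 6 against 1 to 3, the 13 genes called were 55 with no filter and 5 to 29 with 1 library left out. They were 29 without double-negative library 5 and 6, 8, 5 and 8 without AnnexinV-positive libraries 1, 2, 3 and 6. Cdkn1a passed in 16 of 17 alternatives (6.30 to 8.35 with 1 left out), and had 8.10 within AnnexinV-positive libraries (adjusted p = 0.0579). Trp53 was −0.27 to 0.16 and Mdm4 −0.57 to 0.32 with 1 left out, Mdm4 was −0.30 within AnnexinV-positive and Trp53inp1 0.038 within double-negative libraries. Values with 3 or fewer counts in both groups were not given.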

Other observations

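Besides Cdkn1a, 12 genes were called between library numbers 4 to 6 and 1 to 3. They are named here after their values were seen. Higher in numbers 4 to 6 were Id3, an inhibitor of helix-loop-helix factors (216 against 11 counts), Bend4 (162 against 5), and Gm15772, Rpl17-ps5 and Rps2-ps10, a predicted gene and 2 annotated as pseudogenes by name (257 against 4, 138 against 0 and 182 against 3). Higher in numbers 1 to 3 were Nfia (1285 against 563), Plxna2 (250 against 26), Epha5 (341 against 66), Ptn (472 against 101), Neurod6 (247 against 53), Gm8730 (160 against 20) and Slc25a37, the mitochondrial iron importer of red cell precursors (315 against 15). Of the 12, 2 carry pseudogene names, and reads of such copies could have been split differently by the authors' counting, which was not tested.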
